A study of Mus musculus with 9 samples.

Results

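Splicing factor and snRNP genes were taken as the rows of the deposited table whose symbol starts with Srsf, Sfrs, Snrp, Sf3a, Sf3b, Prpf or U2af. The rule found 48 of 20467 genes with a symbol, 47 of them had a count in at least 1 library, and 46 of 9567 genes past the filter on low counts belonged to them. The 9 libraries came from RAW264.7 cells, a transformed mouse macrophage line, and all cells had received lipopolysaccharide (LPS) at 100 ng/ml for 2 h. There were 3 groups of 3 libraries. Roquin IP was RNA recovered by immunoprecipitation (IP) from the lysate with polyclonal rabbit antibodies against Roquin and protein A/G beads. Control IP was RNA held by such beads with no antibody. Input was RNA of the lysate before IP. The series calls the replicates biological, and all come from 1 cell line. The control held no antibody, so RNA held by antibody and RNA held through Roquin cannot be told apart.

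Most introns are removed by the spliceosome, which is built from small nuclear ribonucleoproteins (snRNPs) and many further proteins. Each snRNP holds a small nuclear RNA, and most carry a ring of Sm proteins, encoded by several Snrp genes. The U2 auxiliary factor (U2af genes) and the SF3a and SF3b complexes (Sf3a and Sf3b genes) mark the end and the branch site of an intron. PRP factors (Prpf genes) build and rearrange the complex, and SR proteins (Srsf genes) bind exons and recruit it. Sfrs18, described below, was counted with the SR genes by its older name only. Roquin binds stem-loops, chiefly in 3' untranslated regions (3' UTRs), of mRNAs that it directs to decay. The mRNAs of the splicing genes were measured here, not their proteins.

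Libraries held 1799390 to 12975767 reads. A level of 1 CPM (count per 1e+06 reads of the TMM-scaled library size, used for all levels here) stood for 2.02 to 11.6 counts. Lars2 took 15.02% to 41.5% of the reads of a library. Tnf took 17.6% to 27.2% of the reads in Roquin IP and at most 0.516% elsewhere. Of 8 macrophage markers, Roquin IP had counts of all 8, and the other groups of 7, with a summed level of 952 to 1945 CPM. The 18 markers of T, B, fibroblast, epithelial and endothelial cells summed to at most 1.26 CPM in any library, and 11 of them had no count. In bulk RNA, less RNA per cell and fewer cells with that RNA cannot be told apart.

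The stem-loop is the sequence feature that Roquin is known for, so its occurrence in these genes is shown first. The deposited table predicted a decay element for 188 genes and for none of the 48 splicing genes. A search of the longest annotated 3' UTR (GENCODE M21, GRCm38, sense strand) used a 9-base pattern of TTC, a pyrimidine, a purine, a pyrimidine and GAA. It was found in 3 of the 46 tested splicing genes (6.52%) and in 568 of 9446 tested genes with a 3' UTR (6.01%). The splicing genes had shorter 3' UTRs, with a median of 664.5 bases against 1200. The sites of Snrpg and Prpf4 are printed with those of Tnf, Nfkbid and Rc3h1, 3 mRNAs with a predicted conserved element, and the capitals mark the pattern.
Snrpg: tttctatTTCTGTGAAgagacac
Prpf4: taacctgTTCTATGAAattacca
Tnf: acatgttTTCTGTGAAaacggag
Nfkbid: aggtgatTTCTGTGAAatcgagc
Rc3h1: caataacTTCTGTGAAgttgcct

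The sites lie in 3' UTRs at chr6:86379218-86379226 (plus strand) for Snrpg and chr4:62425398-62425406 (plus) for Prpf4. The printed sites of Tnf (chr17:35199588-35199596, minus), Nfkbid (chr7:30428405-30428413, plus) and Rc3h1 (chr1:160971663-160971671, plus) each had 3 further base pairs next to the pattern. Snrpg and Prpf4 had 0. Only A-T and G-C pairs were counted. G-U pairs of the RNA were not, and the bases next to the pattern in Snrpg are t and g. A strict form with at least 2 further pairs was in 0 of 46 splicing genes and in 90 (0.953%) of all. Rc3h1 held a further site with 0 pairs by this count, where the bases next to the pattern are g and t. Before the 3' UTR, in the longest coding transcript, the 9-base pattern was also found once each in Snrpd1, Sf3b3 and Prpf4.

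Together the 48 genes were a small share of each library. In the input they summed to 4347, 4587 and 5909 CPM, in control IP to 3859, 4117 and 5742, and in Roquin IP to 2804, 3390 and 4571. The groups overlapped. The mean sums were 4948 ± 842 CPM in the input, 4573 ± 1021 in control IP and 3588 ± 900 in Roquin IP (SD, n = 3 each). As a share of all reads they held 0.576% ± 0.0803 in the input, 0.575% ± 0.189 in control IP and 0.254% ± 0.0978 in Roquin IP. Without the reads of Tnf, Ccl4 and Lars2 the shares were 0.937% ± 0.175, 0.880% ± 0.200 and 0.501% ± 0.119. By either share every Roquin IP lay below every control IP and every input. Scaled by library size alone, the typical tested gene was lower in Roquin IP too. Relative to control IP, the log2 change had a median of -0.96 across 9567 genes and -1.18 across the tested splicing genes. Relative to the input, these medians were -0.76 and -1.22. The lower shares were thus not particular to the splicing genes. SR genes made up the largest part of the sum in all 3 groups, at 1774 ± 477, 1825 ± 750 and 1506 ± 580 CPM.

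**Figure D1:**
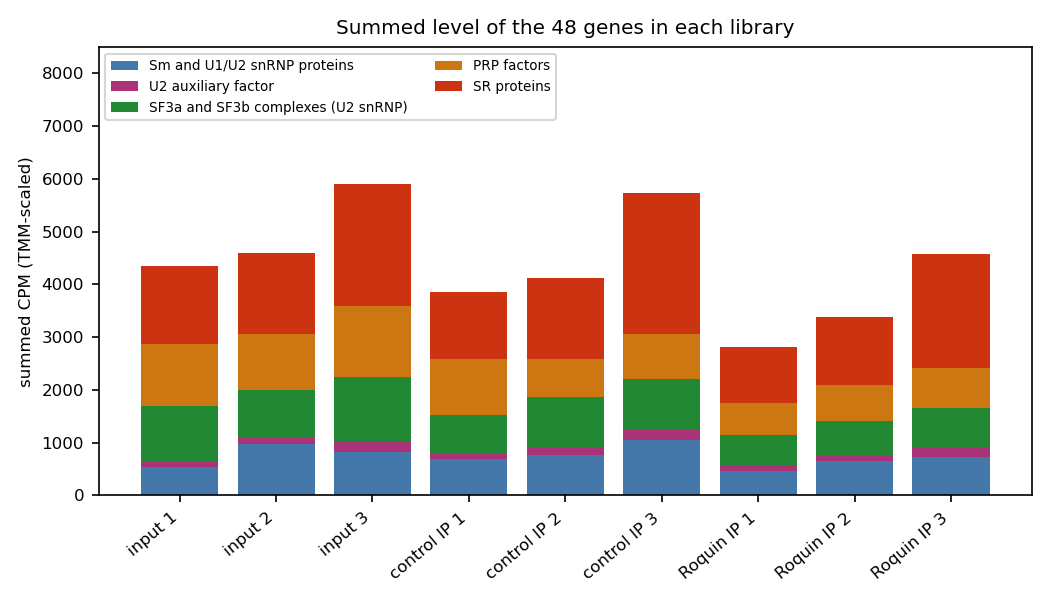
Summed level of the 48 splicing genes in each library (vertical axis, TMM-scaled CPM, from 0), stacked by role. The sums run from 2804 CPM in Roquin IP 1 to 5909 CPM in input 3, and the library numbered 3 was the highest of each group.

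Per kilobase of annotated exon, 2 SR genes led in the input. Srsf2 was at 94.8 ± 41.5 CPM per kb and Srsf1 at 94.1 ± 31.5 (SD, n = 3), both general SR proteins. Snrpd1 (85.2 ± 43.1), Snrpe (58.7 ± 21.5) and Snrpf (46.7 ± 32.7), which encode proteins of the Sm ring, and Prpf8 (49.1 ± 18.04), the scaffold of the catalytic core, followed. Neighbours in the order of level differed by less than the larger of their SDs. In control IP Snrpb, which encodes a further protein of the Sm ring, was first at 115 ± 56.3 CPM per kb, against 45.1 ± 9.09 in the input. Srsf12 had no count in any library, which allows up to 0.258 to 1.49 CPM (3 counts). Snrpn, an Sm gene best known from neurons, had 13 counts over Roquin IP, 11 over control IP and 0 over the input. These 2 genes were not tested.

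Control IP was set against the input to measure what beads kept by themselves. Srsf9, an SR protein gene, was the 1 gene of 46 tested that was called higher on the beads, 3.21-fold over the input. None was called lower by edgeR with group as the only term (quasi-likelihood test, Benjamini-Hochberg adjusted p under 0.05 over all 9567 genes). Over all genes 0.815% were called higher and 0.303% lower. At an unadjusted p under 0.05, 4 of the 46 were higher and 10 lower, that is 8.70% and 21.7% against 10.8% and 9.53% of all genes. Every control IP lay above every input for 4 splicing genes (8.70% against 12.2% of all genes). The median log2 fold change was -0.12 for the splicing genes and 0.02 for all genes, with 29 of 46 below 0 (63.0% against 48.8%). On leaving out 1 library the first median lay between -0.27 (without input 1) and -0.02 (without control IP 1).

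Srsf9 was at 26.9, 44.3 and 50.1 CPM in the 3 inputs and at 109, 125 and 154 in the 3 control IPs. Every control IP lay above every input. The log2 fold change was 1.68 (SE 0.32, adjusted p = 0.0268, and 0.00127 with the replicate block). The ratio between libraries of the same number was 4.06, 2.83 and 3.06. The call ended in a fit of only the 6 libraries compared (0.0738). It also ended on leaving out the Roquin IP library 2 (0.0521), either of the control IP libraries 2 (0.0891) and 3 (0.0754), or either of the input libraries 1 (0.110) and 2 (0.108), while the log2 fold change stayed between 1.46 and 1.75.

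Replicate numbers marked libraries that deviate together, and a fit with the number as a block called more genes on both sides. In control IP against input it called 4 splicing genes higher (8.70% against 6.65% of all genes) and 7 lower (15.2% against 5.78%). Those higher were Srsf9, Snrpb (log2 fold change 1.23, blocked adjusted p = 0.0101), Srsf3, an SR protein gene (0.88, 0.0219), and Sf3b5, the smallest SF3b subunit gene (1.00, 0.0326). Without the block they were at 1.36 (adjusted p = 0.0903), 1.00 (0.148) and 0.98 (0.117). Snrpb was at 74.5, 83.4 and 109 CPM in the inputs and at 99.3, 286 and 297 in the control IPs. Control IP 1 lay within the range of the inputs, and the other 2 lay far above it.

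Prpf4, a U4/U6 snRNP protein gene, was the next highest (0.61, adjusted p = 0.299) and passed in neither fit.

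The 7 genes called lower on the beads in the blocked fit were Sfrs18, Prpf4b, Sf3a3, Prpf39, Sf3b2, Prpf38b and Prpf3. Their blocked log2 fold changes ran from -1.46 (Sfrs18, adjusted p = 0.00711) to -0.88 (Prpf38b, 0.0213). Without the block the same genes lay between -1.47 and -0.91 with adjusted p from 0.0539 to 0.212. DESeq2 called 6 splicing genes lower (4.17% of all genes) and 2 higher (4.31% of all genes). In all 7 genes each control IP lay below each input, as in 9 of 46 splicing genes and 10.8% of all genes. By role, the medians in the fit without the block were -0.29 for 13 PRP factors, -0.21 for 8 SF3a and SF3b genes, -0.12 for 11 Sm and other Snrp genes, -0.12 for 11 SR genes and 0.43 for 3 U2af genes.

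**Figure D2:**
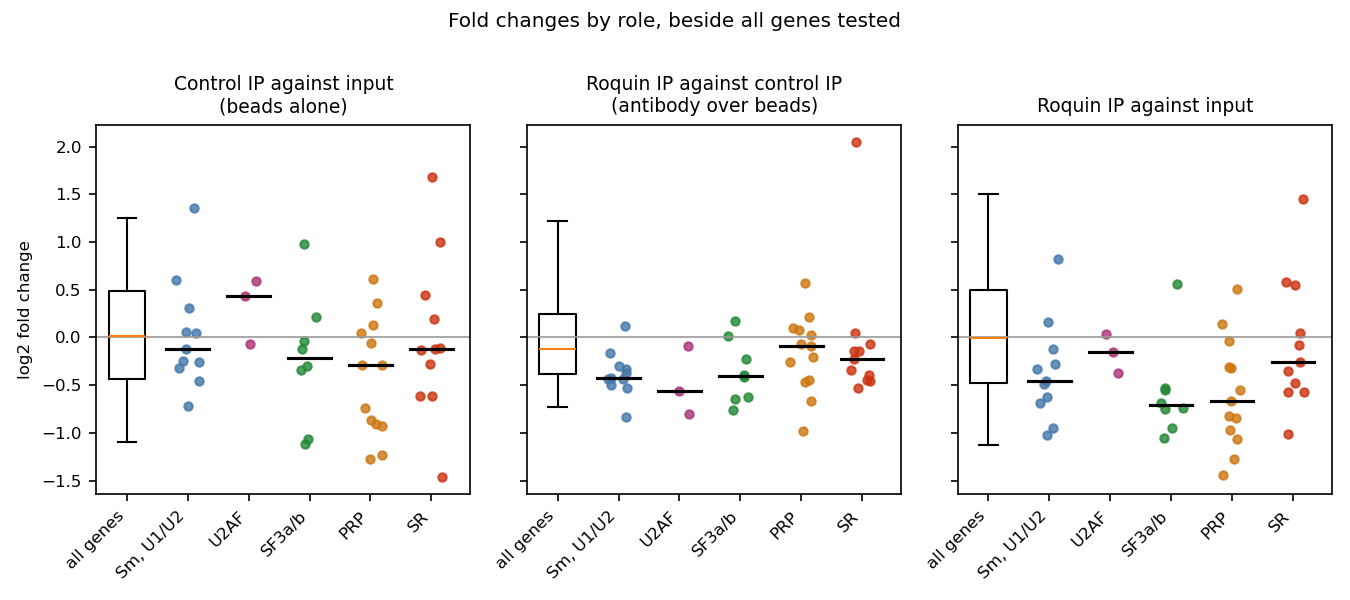
Log2 fold change (vertical axis) of each tested splicing gene, by role, in the 3 comparisons, with the role's median as a bar. The box shows the quartiles and the whiskers the 5% and 95% points of all 9567 genes. In Roquin IP against control IP 1 gene (Sfrs18, 2.05) stands above the rest.

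Base composition moved with retention by the beads. Across all genes with a transcript (n = 9499), GC content and the log2 fold change of control IP over input had Pearson's r = 0.43 and Spearman's rho = 0.44. Across the 46 splicing genes r was 0.30 and rho 0.29. Transcript length gave r = -0.16 over all genes and -0.35 over the splicing genes. Genes share their libraries and are not independent replicates, so these are descriptions. The transcript of Srsf9 had a GC content of 56.2% over 1162 bases, that of Snrpb 57.7% over 1161 bases. Srsf3 (39.99%, 2618 bases) and Sf3b5 (45.5%, 3841 bases), also called higher on beads in the blocked fit, went the other way. Both lay below the median GC content of the tested splicing genes (47.6%). The transcripts of Sfrs18 (43.9%, 4545 bases), Prpf4b (40.8%, 7844 bases) and Prpf3 (47.5%, 2933 bases) had less GC than those of Srsf9 and Snrpb. Sf3b2 had 54.3% and was also low on the beads. The part of composition in these changes was not tested.

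**Figure D3:**
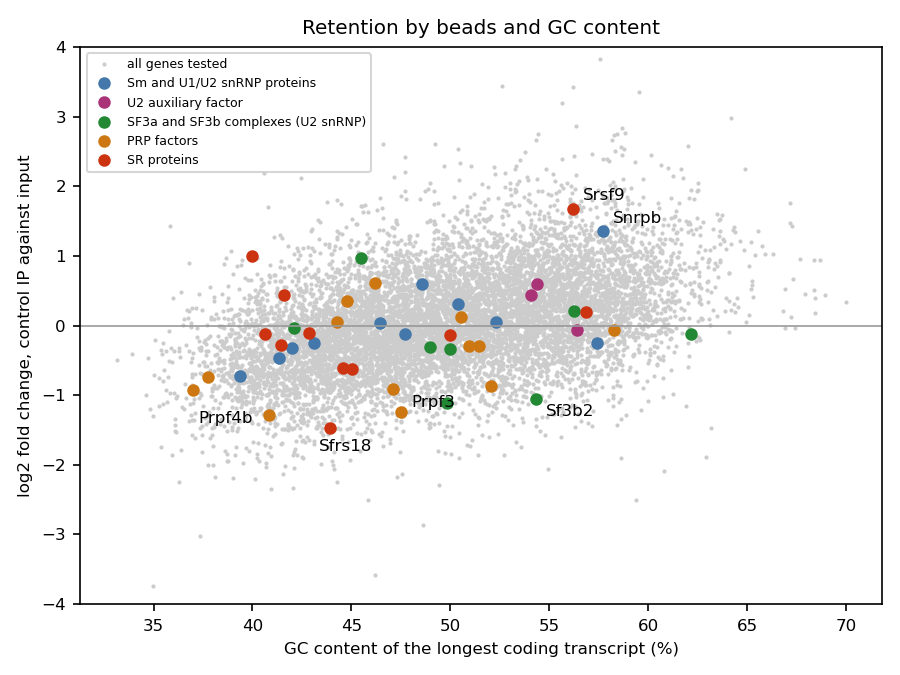
GC content of the longest coding transcript (horizontal axis, percent) against the log2 fold change of control IP over input (vertical axis), with all genes in grey and splicing genes coloured by role. Srsf9 (56.2%, 1.68) and Snrpb (57.7%, 1.36) lie at the upper right, and 4 genes outside the range of -4 to 4 are not drawn.

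What the antibody added over beads was read from Roquin IP against control IP. Sfrs18 was the 1 splicing gene of 46 that rose, 4.14-fold over control IP. It is now named Pnisr and encodes a serine- and arginine-rich protein that interacts with pinin, a protein of nuclear speckles. None fell by edgeR, by DESeq2 or in the blocked fit. The share called higher was 2.17% of the splicing genes against 3.76% of all genes, and no gene of the table was called lower by edgeR (0.00%), while DESeq2 called 5 (0.0460%) and the blocked fit 11 (0.115%). The blocked fit called 1 splicing gene and 5.52% of all genes higher. At an unadjusted p under 0.05, 1 splicing gene was higher (2.17% against 7.93% of all genes) and 2 were lower (4.35% against 2.13%). For scale, Tnf had a log2 fold change of 7.57 and Rc3h1, a Roquin gene, of 6.63.

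Sfrs18 was at 19.5, 12.3 and 18.8 CPM in the control IPs and at 46.6, 48.04 and 114 CPM in the Roquin IPs. Every Roquin IP lay above every control IP, and Roquin IP 3 lay far above the other 2. Its counts summed to 346 and 1672. The ratio between libraries of the same number was 2.39, 3.89 and 6.07. The log2 fold change was 2.05 (SE 0.40, edgeR adjusted p = 0.00588, and 0.000297 with the replicate block). It was 1.28 with library size alone (adjusted p = 0.0332), 1.49 without Roquin IP 3 (0.0459) and 1.87 without control IP 2 (0.0463), and the call held under every alternative tried. Among the 360 genes called higher over control IP its fold change ranked 214th. The authors' deposited table gave it a ratio of 4.16 with p = 0.123.

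In the inputs Sfrs18 was at 46.0, 32.8 and 61.5 CPM, overlapping Roquin IP and above all control IPs. Its log2 fold change was -1.47 (SE 0.40, adjusted p = 0.0719) in control IP against input and 0.58 (SE 0.39, adjusted p = 0.405) in Roquin IP against input. The 3 comparisons share libraries, and on the log2 scale the change on beads and the change over control IP add up to the change over the input. GENCODE places the gene at chr4:21847583-21876475 (plus strand, GRCm38), with no annotated exon of another gene overlapping its exons and no near-identical transcript of another gene. Its 3' UTR of 1791 bases held no match to the 9-base pattern, and neither did the rest of its longest coding transcript.

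**Figure D4:**
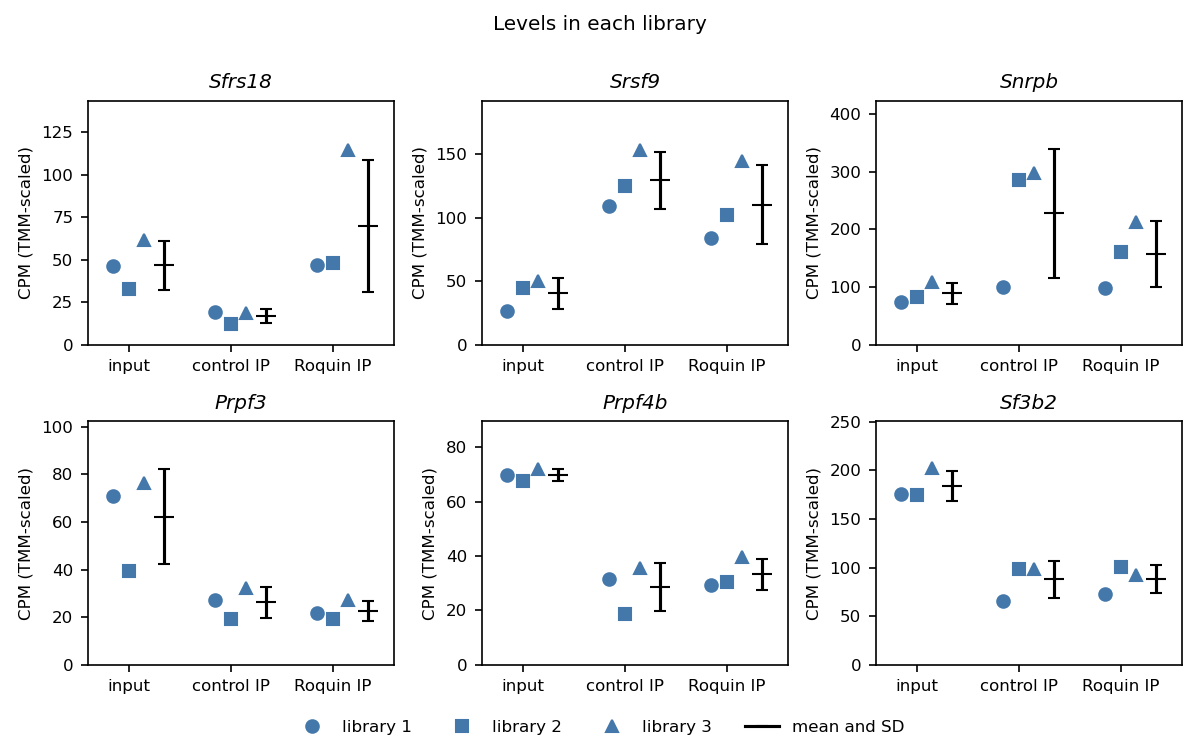
Levels of 6 splicing genes in each library (vertical axes, TMM-scaled CPM, from 0), with symbols for the library number and the mean ± SD of each group (n = 3). Sfrs18 is low in control IP alone, Srsf9 is high in both IPs, and Prpf3, Prpf4b and Sf3b2 are low in both IPs.

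The other 45 tested splicing genes did not pass in Roquin IP against control IP. The median log2 fold change of the 46 was -0.34 against -0.12 for all genes, and 36 of 46 (78.3%) lay below 0 against 60.2%. With the replicate block the medians were -0.36 and -0.11. The median moved on leaving out single libraries: without control IP 3 it was -0.02 against -0.07 for all genes, without Roquin IP 1 -0.17 against -0.10, and without Roquin IP 3 -0.52 against -0.12. The 95% interval of the change lay under a 2-fold increase (log2 of 1) for 43 of the 46. The exceptions were Sfrs18, Prpf40b (0.57, with levels of at most 9.65 CPM) and Snrpf (0.12). Prpf4b (0.22, adjusted p = 0.866) and Sf3a3 (0.17, 0.895) came next to Prpf40b by fold change. A 2-fold decrease was within the interval for many, since the lower end lay above -1 for 18 genes. The groups did not overlap for 6 splicing genes lower in Roquin IP (against 8.00% of all genes) and for 1 higher (2.17% against 10.7%).

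Prpf8 was the lowest, at -0.99 (SE 0.40, adjusted p = 0.362), and at -0.34 without control IP 1. It was at 516, 200 and 183 CPM in the control IPs and at 163, 152 and 138 in the Roquin IPs. The groups did not overlap, and control IP 1 stood apart from the other 2. The inputs were at 489, 222 and 387 CPM. Snrpd3 (-0.83), U2af1l4 (-0.80), Sf3b4 (-0.76) and Prpf38a (-0.67) were next, with adjusted p from 0.550 to 0.694. Sf3b1, the SF3b subunit that holds the branch site, was at -0.65 (adjusted p = 0.391) and, with Prpf8, was 1 of the 2 genes lower at an unadjusted p under 0.05. Srsf9 was at 83.9, 102 and 145 CPM in Roquin IP, overlapping control IP (log2 fold change -0.23, SE 0.30, adjusted p = 0.856). Snrpg and Prpf4, with the stem-loop pattern in the 3' UTR, did not pass either: Snrpg was at -0.50 (adjusted p = 0.644) and Prpf4 at -0.47 (0.696).

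By role, 10 of 11 Snrp genes, 3 of 3 U2af genes, 6 of 8 SF3a and SF3b genes, 8 of 13 PRP factors and 9 of 11 SR genes had a log2 fold change below 0 against control IP. Their medians were -0.43, -0.56, -0.41, -0.09 and -0.23. Relative to all genes the medians of the first 3 roles and of the SR genes lay lower, and that of the PRP factors lay slightly higher. Scaling by library size alone moved the median of all genes from -0.12 to -0.96 and that of the splicing genes from -0.34 to -1.18, and called 31 of them (67.4%) and 38.8% of all genes lower. The authors' deposited table gave ratios under 1 for 36 of 47 splicing genes, with a median of 0.80, and no p under 0.05 (1.81% of all its genes had one).

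**Figure D5:**
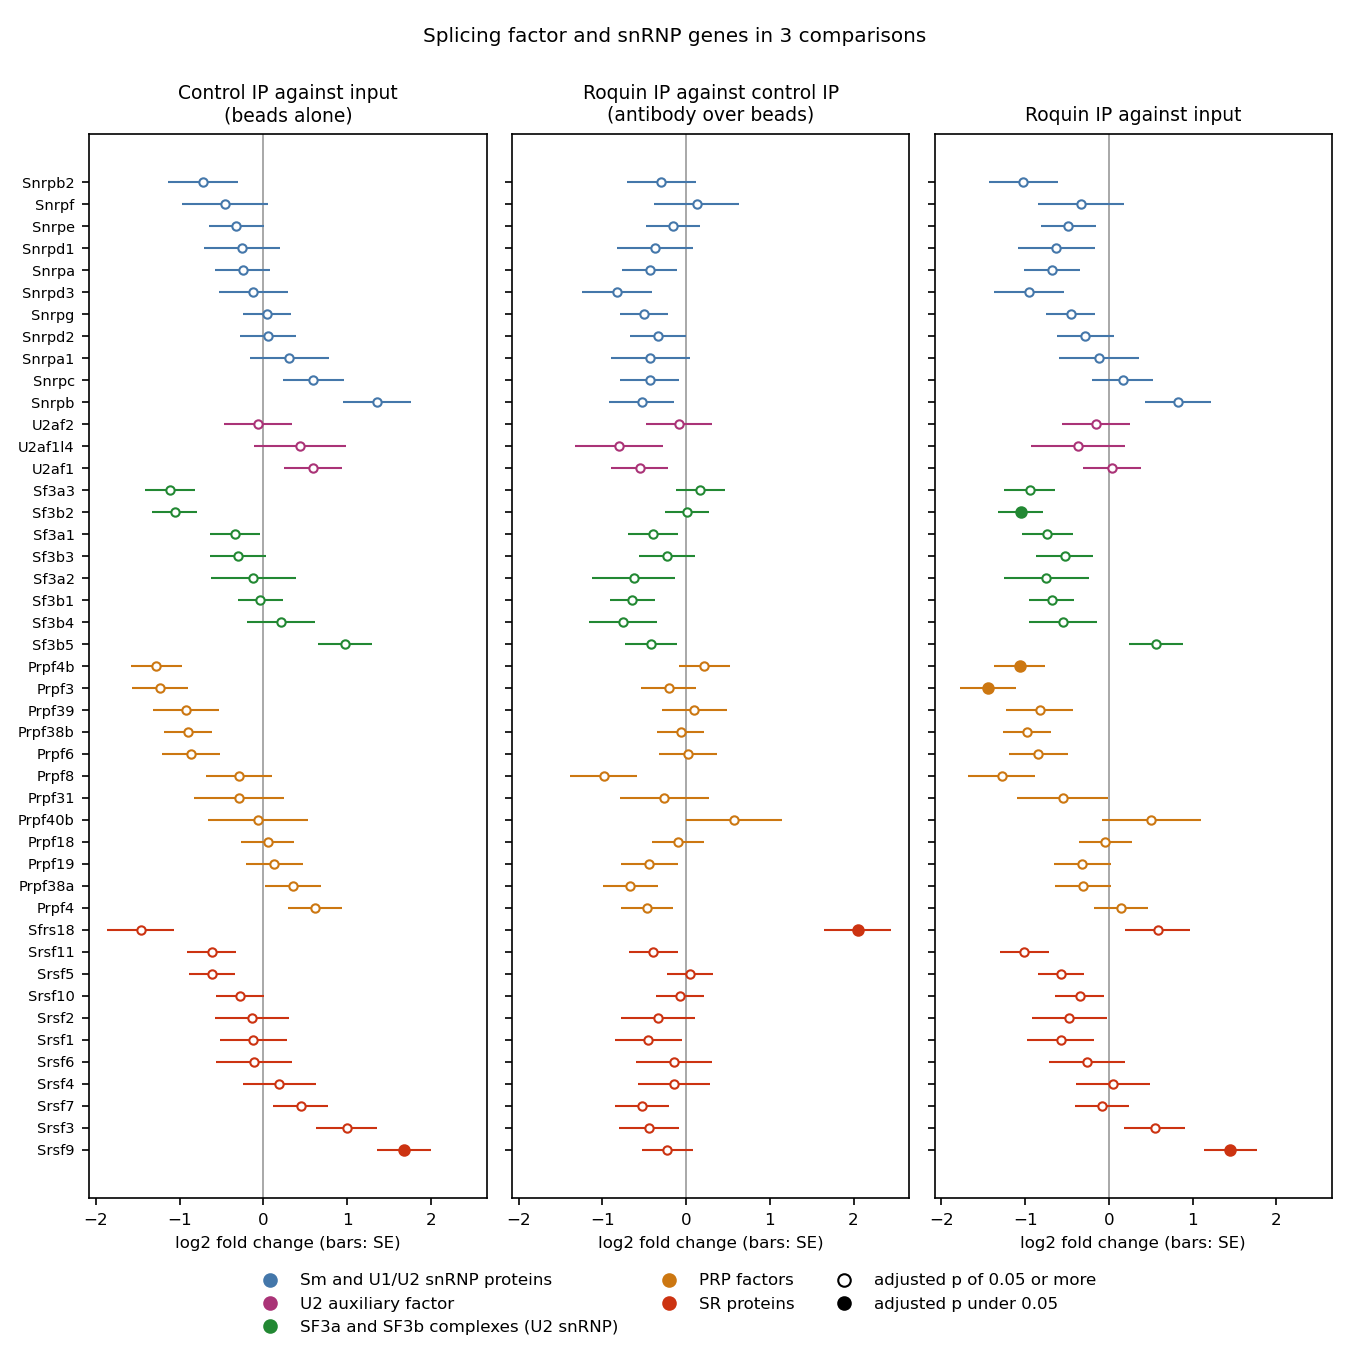
Log2 fold change (horizontal axes) with its SE for 45 of the 46 tested splicing genes in the 3 comparisons, grouped by role and ordered by the change on beads. Filled points passed an adjusted p of 0.05: Srsf9 on beads, Sfrs18 over beads, and Srsf9, Sf3b2, Prpf4b and Prpf3 over the input.

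Roquin IP against input gave the sum of both steps. Srsf9 rose 2.74-fold, and Prpf3, Prpf4b and Sf3b2 fell. Prpf3 encodes a protein of the U4/U6 snRNP, Prpf4b a kinase that acts on the spliceosome, and Sf3b2 an SF3b subunit. The share called was 2.17% higher and 6.52% lower, against 5.45% and 2.79% of all genes. At an unadjusted p under 0.05, 13 splicing genes were lower (28.3% against 10.7%) and 1 was higher (2.17% against 12.1%). For 15 every Roquin IP lay below every input (32.6% against 14.3%), and for 1 above (2.17% against 16.5%). The median log2 fold change was -0.48 against -0.01 for all genes, with 36 of 46 below 0 (78.3% against 50.5%). Without input 3 the median of the splicing genes was -0.24, and without the other libraries in turn it lay between -0.67 and -0.34. By role the medians were -0.71 for SF3a and SF3b genes, -0.66 for PRP factors, -0.46 for Snrp genes, -0.26 for SR genes and -0.15 for U2af genes.

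Prpf3 was at 70.9, 39.5 and 76.4 CPM in the inputs, 27.1, 19.4 and 32.5 in the control IPs and 21.8, 19.2 and 27.3 in the Roquin IPs. Both IPs lay below all inputs and overlapped each other. Its log2 fold change in Roquin IP was -1.44 over the input (SE 0.34, adjusted p = 0.0174) and -0.21 over control IP (SE 0.33, adjusted p = 0.886). On beads alone it was -1.24 (SE 0.34, adjusted p = 0.0704).

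Prpf4b was at 69.6, 67.6 and 71.9 CPM in the inputs, 31.7, 18.6 and 35.7 in the control IPs and 29.4, 30.6 and 39.8 in the Roquin IPs. The inputs were close together and above all 6 IPs. Its change was -1.06 over the input (SE 0.30, adjusted p = 0.0459), 0.22 over control IP (SE 0.30, 0.866) and -1.28 on beads (SE 0.31, 0.0539).

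Sf3b2 was at 175, 174 and 202 CPM in the inputs, 66.1, 98.8 and 98.8 in the control IPs and 72.6, 101 and 92.2 in the Roquin IPs. Again both IPs overlapped and lay below all inputs. Its change was -1.05 over the input (SE 0.27, adjusted p = 0.0272), 0.01 over control IP (SE 0.27, 0.994) and -1.06 on beads (SE 0.27, 0.0610). For Srsf9 the change over the input was 1.45 (SE 0.32, adjusted p = 0.0119), and on beads it was 1.68. The next highest over the input were Snrpb (0.83, adjusted p = 0.236), Sfrs18 (0.58, 0.405), Sf3b5 (0.56, 0.321) and Srsf3 (0.55, 0.403).

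In the fit without the block these calls over the input lay near the threshold, and several ended with 1 library fewer. With the block and all 9 libraries the edgeR adjusted p was 0.000404 for Srsf9 and 0.00141 for Prpf3. It was 0.00279 for Sf3b2 and 0.00885 for Prpf4b. Libraries were left out only in the fit without the block. For Prpf4b the call ended on leaving out any 1 Roquin IP or input (adjusted p 0.0877 to 0.183), with log2 fold changes from -1.21 to -0.98. The same held for Sf3b2 (0.0540 to 0.142), with -1.15 to -0.93. For Prpf3 it ended without the first (0.0828) or the second (0.0816) Roquin IP library, and without the first (0.0548) or the third (0.0640) input library, with log2 fold changes from -1.41 to -1.26. For Srsf9 it ended without Roquin IP 3 (0.0692) or input 1 (0.0516) at 1.21 and 1.23, and with library size alone at 0.73 (0.138). The blocked fit called Srsf9 higher (9.99% of all genes) and 11 splicing genes lower (23.9% against 8.04% of all genes), adding Prpf8 (log2 fold change -1.19, adjusted p = 0.00976), Srsf11 (-1.03, 0.00750), Snrpb2 (-0.99, 0.0327), Prpf38b (-0.98, 0.00774), Sf3a3 (-0.96, 0.0115), Prpf39 (-0.86, 0.0495), Sf3b1 (-0.70, 0.0377) and Srsf1 (-0.63, 0.0300).

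Prpf8, Sf3b1 and Snrpd3 were 3 further genes with lower values over the input (-1.28, -0.68 and -0.95). On beads Prpf8 was at -0.29, Sf3b1 at -0.04 and Snrpd3 at -0.12, and in Roquin IP against control IP at -0.99, -0.65 and -0.83. None of these values passed in the main fit, that is with the filter, the TMM scale, all 9 libraries and no block. Over the input Prpf8 passed in several alternatives. Its adjusted p was 0.00360 with no filter (edgeR), 0.0186 with DESeq2 and 0.0213 with only the 6 libraries compared (edgeR). Without control IP 1, the value of Prpf8 over control IP was the -0.34 given above, and that of Snrpd3 was -0.36.

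Other genes of the splicing pathway were read from lists made for this purpose. Of 28 tested snRNP genes outside the name pattern, Lsm2 and Sart3 rose over control IP (3.76% of all genes did). Lsm2 encodes a protein of the Sm-like ring on U6, and its log2 fold change was 2.73 (edgeR, adjusted p = 0.000486). For Sart3, a factor that recycles U4/U6, it was 2.70 (0.000268). Lsm2 was at 67.6, 37.8 and 37.1 CPM in the control IPs and 443, 158 and 344 in the Roquin IPs, with no overlap. Sart3 was at 21.3, 32.7 and 40.1 CPM and at 176, 160 and 279, again with no overlap. The 3' UTR of Sart3 held 1 match to the 9-base pattern with 0 further base pairs, at chr5:113742828-113742836 (minus strand), and that of Lsm2 held none.

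Of 23 tested SR-related protein and SR kinase genes, 2 rose over control IP (3.76% of all genes did). Clk1, a kinase of SR proteins, was at 4.57, 12.9 and 9.97 CPM in the control IPs and at 297, 355 and 248 in the Roquin IPs. Its log2 change was 5.00 (adjusted p = 9.07e-06), and that of Srrm2, a large nuclear speckle protein gene, was 2.09 (0.0145). Clk1 had, like Sfrs18, a lower level on beads than in the input (-2.35, adjusted p = 0.0259), and Srrm2 was at -1.13 there (0.173, and 0.0459 with the block). Pnn, the gene of pinin, was at 0.58 over control IP (0.655). None of 14 SMN complex and Sm assembly genes, 26 hnRNP genes, 34 genes of the Prp19 complex, step factors and helicases, or 19 genes of the exon junction complex and mRNA export was called in either direction over control IP by edgeR. At an unadjusted p under 0.05 the SMN list had 1 higher gene, the hnRNP list 1 higher, the Prp19 list 0 and the export list 1 lower. DESeq2 called 1 gene of these lists, a higher one of the SMN list. The blocked fit called Gemin5 of the SMN list higher (1.07, adjusted p = 0.0104) and Thoc3 of the export list lower (-0.82, 0.0455). Of the SR-related genes it also called Rbm39 higher (1.01, 0.00856).

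On beads Lsm4 (log2 fold change 2.35), Snrnp25 (2.18), Gemin7 (2.84) and Bcas2 (1.46) were called higher than in the input, with edgeR adjusted p from 0.0166 to 0.0342. They encode a Sm-like protein, a U11/U12 snRNP protein, an Sm assembly factor and a Prp19 complex protein. The same 4 genes were called higher in Roquin IP over the input (1.74, 1.56, 2.16 and 1.15), and over control IP they were at -0.62, -0.62, -0.68 and -0.31, with adjusted p from 0.579 to 0.779. These comparisons share libraries. Called lower on beads were Clk1 and 3 genes of the Prp19 list, Cwf19l2 (-1.86, adjusted p = 0.0259), Crnkl1 (-1.67, 0.0319) and Cwc15 (-1.31, 0.0471). Of all genes, 0.815% were called higher on beads and 0.303% lower.

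Over the input, 7 of 26 hnRNP genes fell and 2 rose, while 2.79% of all genes fell and 5.45% rose. Hnrnph2 was the lowest by adjusted p (-1.65, adjusted p = 0.00193), and Hnrnpa0 (1.39, 0.0139) and Hnrnpa1 (1.17, 0.0255) rose. Of the 34 genes of the Prp19 complex, step factors and helicases, 6 fell and 2 rose, with Crnkl1 at -1.99 (0.00181) and Snw1 at -1.31 (0.00946). Upf3b (-2.44, 0.00461), a factor of nonsense-mediated decay, Thoc2 and Thoc1 fell among the 19 exon junction and export genes. Among the SR-related genes 3 fell, Bclaf1 (-1.54, 0.00829) the lowest by p, and Clk1 rose (2.66, 0.00109). The medians of the hnRNP and Prp19 lists over the input were -0.66 and -0.64, against -0.48 for the 46 splicing genes and -0.01 for all genes. Those of the SR-related, export and SMN lists were -0.39, -0.28 and -0.17. The snRNP genes outside the name pattern went the other way, with a median of 0.18. Of these 28 genes, 5 were called higher over the input and 0 lower.

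The blocked fit called more genes of these lists against the input, and more of all genes. On beads it called 6.65% of all genes higher and 5.78% lower. In Roquin IP over the input these shares were 9.99% and 8.04%. On beads it called 8 hnRNP genes lower and Hnrnpa0 higher (1.27, adjusted p = 0.00553), 10 SR-related genes lower, and 8 genes of the Prp19 list lower and 2 higher. It also called 4 genes of the snRNP list higher, 3 export genes lower and Thoc3 higher, and 1 SMN gene higher and 1 lower. In Roquin IP over the input it called 13 hnRNP genes lower and 2 higher, 7 SR-related genes lower and 2 higher (Pnn among them, 0.97, 0.00347), and 10 genes of the Prp19 list lower and 2 higher. It also called 6 genes of the snRNP list higher and 2 lower, 5 export genes lower, and 2 SMN genes higher and 2 lower.

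Some splicing genes cannot be counted with certainty. Exons of Snrpf, Snrpn, Sf3a2, Srsf4, Srsf2, Prpf31, Prpf39 and U2af1l4 overlapped exons of other annotated genes by more than 400 bases. Transcripts of 13 of the 48 genes, U2af1, Snrpc, Snrpa and Srsf3 among them, had a near-identical stretch in a transcript of another gene (95% identity over at least 30% of the length). None of Sfrs18, Srsf9, Prpf3 and Prpf8 was affected, and Prpf4b and Sf3b2 overlapped only noncoding antisense genes, by 36 and 194 bases.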

How the data were processed

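The authors' deposited table held raw read counts per gene for 9 libraries, per the file headers. The authors' deposited ratio set Roquin IP over control IP per gene, on a linear scale although the header names log2. The authors' deposited p-value stood beside that ratio, per the file headers, with no word on adjustment. The submitters' processing notes name BWA, CASAVA 1.8.2 and DESeq 1.8.3. Build, annotation and strand handling: not given in the sources used here. Rows without a symbol (7480) were not used.

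Counts of all genes were tested by the quasi-likelihood method of edgeR 4.0.16 (TMM factors, filterByExpr with a minimum count of 10, 9567 genes) in R 4.3.3, all 9 libraries in 1 fit with group as the only term. The common biological coefficient of variation was 0.35. Benjamini-Hochberg adjusted p under 0.05 was called. SEs were derived from the F statistic, and 95% intervals use them. The fit was tested on simulated data. For a log2 change of 1, it recovered 10.6% in Roquin IP against control IP, 6.06% in Roquin IP against input and 10.6% on beads. For a log2 change of 2, it recovered 77.6%, 65.7% and 71.6%. Most simulated 2-fold changes were thus missed, and a gene not called may have changed by that much. Replicates differed by more than sampling noise (chi-square per degree of freedom 13.9 to 117). Same-numbered libraries of different groups deviated together from their group means (correlations 0.15 to 0.58, against -0.43 to -0.02 for different numbers). Deviations cancel within a group, so positive same-number values make the others negative on average. The main fit, its SEs and intervals, and the fits with a library left out ignored this pairing. The fit with the replicate block took it into account and is given where it changes a call. A count of 0 allows up to 3 counts, and floors cover counting error only, since PCR reads without molecular identifiers are not independent molecules. Alternatives were RLE factors, library size alone, no filter, DESeq2 1.42.0, the block, only the 6 libraries compared, no Lars2, and leaving out each library.

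Genes were matched to GENCODE M21 by symbol (45 of 46 tested splicing genes) or a RefSeq synonym (Sfrs18, as Pnisr). Exon length is the union of annotated exons. Near-identical transcripts were sought with blastn 2.17.0. Splicing genes called in any comparison, the 5 highest and 5 lowest in each and the 6 with the highest input level per length are described, with up to 3 called genes of each other list. Not all of the latter are named. Pnn, Gemin5, Rbm39, Thoc3 and the genes whose levels are given under the other observations were named after their values were seen. The genes and lists were chosen with earlier results of these data known. Values of 1 splicing gene are not reported here singly, and it is in the counts and medians.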

Additional observations from a re-analysis of the deposited data

How the results depend on the processing

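Sfrs18 stayed called over control IP under all 16 alternatives, with log2 fold changes from 1.28 to 2.27 and adjusted p from 1.27e-06 to 0.0463. The splicing genes called higher over control IP numbered 1 in each, and those called lower 0 except 31 with library size alone. Over the input, 1 was higher (0 with library size alone, 0 to 1 on leaving out 1 library) and 3 were lower. The lower genes numbered 5 with RLE factors (283 of all 9567 genes) and 26 with library size alone (2668 of 9567). They numbered 7 with no filter (416 of 14155) and 7 with DESeq2 (519 of 8940). They numbered 11 with the replicate block (769 of 9567) and 4 with only the 6 libraries compared (365 of 8846). On leaving out 1 library they numbered 0 to 6. On beads against input, 1 was higher: 3 with no filter, 2 with DESeq2, 4 with the replicate block, 0 with only the 6 libraries compared and 0 to 2 on leaving out 1 library. None was lower on beads, but 5 were with no filter, 6 with DESeq2, 7 with the replicate block and 0 to 1 on leaving out 1 library. Of all 14155 genes, the fit with no filter called 335 higher and 229 lower on beads. DESeq2 called 385 and 373 of 8940, and the blocked fit 636 and 553 of 9567. With only the 6 libraries compared, 2 and 1 of 9117 were called. Among the splicing genes, the blocked fit changed no other call than those given above. No called value changed sign. The cause of these differences was not tested, except that leaving out libraries leaves fewer to test. A group left with 2 libraries was assumed to vary like the others. Input libraries were the shallowest, at 1799390 to 2122288 reads, which limits comparisons with them.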

Other observations

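Snrpd3 varied between libraries of 1 group, at 57.4, 179.9 and 109.6 CPM in the input and at 166, 58.4 and 95.5 CPM in control IP, while Roquin IP was narrow at 52.0, 63.0 and 64.3 CPM. Srsf1, the splicing gene with the highest mean level in Roquin IP, was at 220, 317 and 544 CPM there, at 319, 392 and 770 in control IP and at 398, 473 and 740.4 before IP, so the libraries numbered 3 were the highest of each group. Srsf2, Srsf3, Srsf4, Srsf6, Srsf7, Srsf9 and Srsf10 were also highest in the library numbered 3 of every group. So were genes of other roles, among them U2af2, Snrpb, Sf3b3 and Prpf19, but not Srsf5 or Prpf8.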
